A study of Homo sapiens with 27 samples.

Results

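The endothelin system was followed through 7 genes: the ligands EDN1, EDN2 and EDN3, the receptors EDNRA and EDNRB, and the endothelin converting enzymes ECE1 and ECE2. They were taken by symbol from the 44852 genes of the count and TPM tables, and all 7 were found and passed the filter of more than 1 count in sum in every fit. The set was chosen because EDNRB and EDN3 were lower on the LN523 matrix than on LN521 at day 32, so the members were chosen by their measured levels in those 6 libraries. The values of that contrast are therefore given as a description with no test.

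Bulk RNA sequencing had been done on H1 cells, an established line of human embryonic stem cells, that were grown on 3 laminin matrices and turned towards photoreceptor progenitors. Laminins are heterotrimeric proteins of basement membranes, and the matrices are named here LN523, LN323 and LN521 after their leading isoform. Each matrix was sampled at days 2, 22 and 32 with 3 libraries, which gave 9 groups and 27 libraries. Replicates 1 to 3 of each group correspond to sequencing lanes 1 to 3, and no source used here says that they were separate cultures, so the p-values measure the spread between these libraries, which may be technical. The study's methods give the matrices as LN523 with LN521, LN323 with LN521, and LN521 alone, whereas the labels name LN323 as the laminin that all 3 share. The partner isoform in each well is thus uncertain. The day 2 cells are labelled as undifferentiated stem cells. From day 2, CKI-7, an inhibitor of casein kinase 1, and SB431542, an inhibitor of TGF-beta type receptors, were given on every matrix. All day 22 and day 32 cells had then also been kept in photoreceptor medium with B27 lacking vitamin A, N2, BDNF, CNTF, retinoic acid and DAPT, an inhibitor of gamma-secretase. This medium began at day 7 by the labels and at day 9 by the methods.

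Endothelins are short peptides cut from longer precursors, first by furin-type convertases and then by the endothelin converting enzymes, which are membrane metalloproteases. EDNRA is a G protein coupled receptor that prefers EDN1 and EDN2, whereas EDNRB binds all the endothelins alike. In the embryo, EDN3 acting on EDNRB is needed by neural crest cells that form melanocytes and enteric neurons, and EDN1 acting on EDNRA patterns the pharyngeal arches. In the retina, EDN2 is known as a product of stressed photoreceptors and EDNRB as a receptor of Müller glia and astrocytes.

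The deposited tables carried 25620624 to 47340990 counts per library, with a median of 39862487. POU5F1, the defining stem cell factor, ranged from 1462 to 2438 counts per 1000000 (CPM) at day 2, from 0.865 to 73.8 at day 22 and from 0.957 to 14.7 at day 32. PAX6, an eye field factor, rose from 1.07 to 2.24 CPM at day 2 to 384 to 843 at day 22. CRX, which marks photoreceptor precursors, lay at 0 to 0.463, 1.46 to 14.0 and 2.99 to 36.0 CPM at the 3 days. At day 32 the photoreceptor genes RCVRN, IMPG2 and RBP3 reached at most 4.48, 15.3 and 49.7 CPM. The libraries were of whole wells, and in such bulk RNA fewer cells of a type and less RNA per cell cannot be told apart.

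Levels of different genes are compared as TPM (transcripts per 1000000), which divides by gene length. By this measure the enzymes were the most abundant role at day 2, with group means of the ECE1 and ECE2 sum between 49.3 and 56.7 TPM. The receptor sum averaged 20.9 to 33.2 TPM and the ligand sum 2.82 to 6.08 TPM at that day. By day 22 the ligand sum had means of 23.3 to 27.6 TPM and by day 32 of 25.6 to 29.2 TPM, on every matrix above the day 2 means. By group mean EDN1 was the leading ligand in all 9 groups, with 53.5% to 86.4% of ligand TPM. By library, EDN3 led in LN323 day 2 replicates 1 and 2, with 63.9% and 52.8%. ECE1 was likewise the leading enzyme, with 79.1% to 82.5% of enzyme TPM at day 2 and 91.2% to 95.5% later. The leading receptor changed from EDNRB to EDNRA between day 2 and day 22, as given below.

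Changes over time were tested with edgeR's quasi-likelihood test with lane as a block, and p-values were adjusted by Benjamini-Hochberg over all genes. From day 2 to day 22, 16 of 21 tests of a member on a matrix passed an adjusted p of 0.05. On LN523, 3 members rose and 2 fell, beside 21.7% of all genes called in either direction, 11.5% higher and 10.2% lower. On LN323, 4 rose and 2 fell, beside 22.7% of all genes, 11.8% higher and 10.9% lower. On LN521, 3 rose and 2 fell, beside 18.9%, 10.8% higher and 8.09% lower. EDN1, EDN3 and EDNRA rose and EDNRB and ECE2 fell on each of the 3 matrices. DESeq2 called 16 of the 21 and limma on log2(TPM + 1) called 15.

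**Figure D1:**
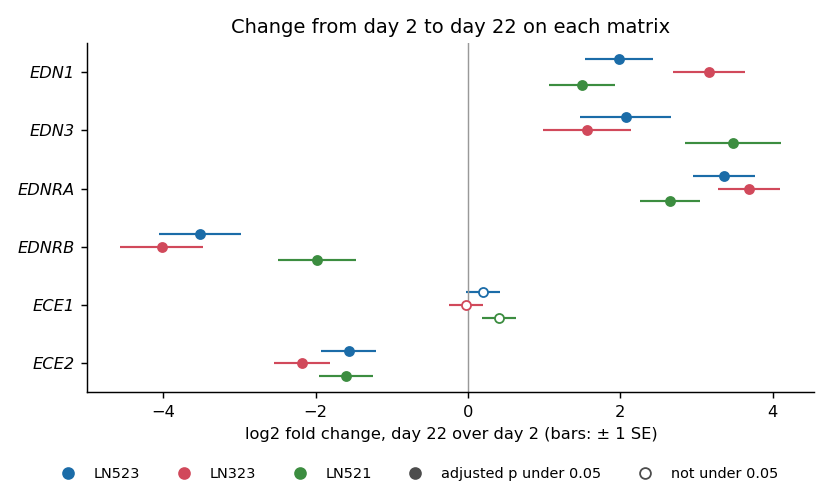
Fitted log2 fold change from day 2 to day 22 (horizontal axis) of EDN1, EDN3, EDNRA, EDNRB, ECE1 and ECE2 on LN523, LN323 and LN521, with bars of 1 standard error; filled points passed an adjusted p of 0.05, and EDN2, which had no count on LN323 at day 2, is left out. EDN1, EDN3 and EDNRA lie above 0 and EDNRB and ECE2 below 0 on all 3 matrices, and the 3 open points are those of ECE1.

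Few tests passed elsewhere. From day 22 to day 32, 1 of 21 member tests was called, with 0.381% of all genes called on LN523, 0.0424% on LN323 and 0.268% on LN521. The call was that of EDN3 on LN523, whose day 32 libraries chose the gene, and it is no independent evidence. Between matrices at day 2, 2 of 21 were called, beside 0.233% of all genes for LN523 against LN323, 0.624% for LN523 against LN521 and 2.5% for LN323 against LN521. At day 22 the count was again 2 of 21, beside 0.013%, 0.572% and 0.616% of all genes in the same order. At day 32, edgeR called 0 of the 14 tests outside the contrast that chose the set, beside 0% of all genes for LN523 against LN323 and 0.117% for LN323 against LN521. Of these 14, 3 had an unadjusted p under 0.05 and DESeq2 called 1. These comparisons share the LN523 or the LN521 libraries with the contrast that chose the set. The difference of the day 2 to day 22 change between matrices was called by edgeR for 0 of 21 tests, beside 0%, 0.00446% and 0.0201% of all genes. In that family 6 tests had an unadjusted p under 0.05, and DESeq2 and limma called 0. The change of EDNRB differed by -2.04 ± 0.71 for LN323 against LN521 (log2 ± SE, adjusted p = 0.61) and by -1.54 ± 0.71 for LN523 against LN521 (adjusted p = 1.0). That of EDN3 differed by -1.91 ± 0.83 (adjusted p = 0.87) and -1.41 ± 0.84 (adjusted p = 1.0) in these comparisons. LN523 and LN323 differed by 0.50 ± 0.69 for EDNRB and 0.51 ± 0.81 for EDN3 (adjusted p = 1.0). A difference between matrices in the course to day 22 was thus not shown for any member.

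EDN1 encodes the ligand best known from vascular endothelium, where GATA and AP-1 elements upstream of the gene take part in its expression. It lies on chromosome 6, 12290361 to 12297194 on the plus strand of GRCh38. The promoters of the members that changed on all 3 matrices and had an entry in RefSeq (GRCh38.p14) are shown, since their transcripts moved over the same interval, EDN1 and EDNRA up and EDNRB down. Of the 7 members 5 had an entry, and EDN3 and ECE2 had none. Of the 250 bases before the start, the longest stretch free of annotated exons is printed 5′ to 3′ on the gene's strand, with matches of 6 searched motifs in capitals.
EDN1 chr6:12290111-12290360 (plus strand): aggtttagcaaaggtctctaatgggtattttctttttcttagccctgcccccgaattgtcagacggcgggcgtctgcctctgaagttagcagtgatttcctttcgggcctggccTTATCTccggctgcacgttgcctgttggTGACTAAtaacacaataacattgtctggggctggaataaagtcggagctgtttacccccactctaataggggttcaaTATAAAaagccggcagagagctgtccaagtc
EDNRA chr4:147480847-147480916 (plus strand): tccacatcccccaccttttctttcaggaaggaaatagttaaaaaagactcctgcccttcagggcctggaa
EDNRB chr13:77918832-77919006 (minus strand): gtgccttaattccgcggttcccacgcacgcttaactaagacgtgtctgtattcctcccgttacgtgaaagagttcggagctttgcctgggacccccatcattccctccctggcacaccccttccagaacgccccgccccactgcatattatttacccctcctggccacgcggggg
Both strands were searched, and the matches did not overlap. In EDN1 the capitals mark the reverse strand of the GATA factor motif AGATAA, 136 bases before the start, the AP-1 variant TGACTAA, 108 before, and the TATA box letters TATAAA, 31 before. Among 35116 promoter windows of 250 bases, AGATAA was found in 9.17%, TGACTAA in 1.62% and TATAAA in 10.7%. The motif TAATCC of OTX and CRX, present in 5.62% of all windows, was searched as well. So were the motif TAATTA of homeodomain factors, in 4.35%, and the motif GCCNNNGGC of TFAP2, in 19.8%. The printed EDNRA and EDNRB stretches, of 70 and 175 bases, held no match, but they are shorter than the windows of 250 bases behind these shares. The whole EDNRA window held no match either. In EDNRB, 1 match of GCCNNNGGC lay 190 bases before the start, in exonic sequence that is not printed. These matches are letters only and were not tested as binding sites.

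EDN1 was low in stem cells and several times higher after differentiation. On LN523 it measured 4.74, 1.29 and 1.54 CPM in replicates 1 to 3 at day 2, 13.0, 9.37 and 8.35 at day 22, and 8.53, 10.6 and 10.6 at day 32. On LN323 it measured 0.578, 0.930 and 1.40 CPM at day 2, 9.59, 9.15 and 7.33 at day 22, and 6.94, 11.6 and 8.85 at day 32. On LN521 the values were 1.5, 3.43 and 3.11 CPM, then 7.17, 6.75 and 8.46, and then 6.17, 21.2 and 6.88. The day 2 and day 22 libraries did not overlap on any matrix, and the highest EDN1 level of all 27 libraries was LN521 replicate 2 at day 32. The rise to day 22 was 1.98 ± 0.44 on LN523 (log2 ± SE, adjusted p = 0.00045, edgeR), 3.17 ± 0.47 on LN323 (adjusted p = 3.6e-07) and 1.5 ± 0.44 on LN521 (adjusted p = 0.0089). Without LN521 day 2 replicate 1 the rise on LN521 was 1.20 with an adjusted p of 0.11, and without LN523 day 2 replicate 1 that on LN523 was 3.00. At day 2, EDN1 was lower on LN323 than on LN521 by -1.59 ± 0.46 (adjusted p = 0.027), and the libraries of these groups did not overlap. This call was lost without LN323 replicate 1 (adjusted p = 0.82), LN521 replicate 2 (0.57) or LN521 replicate 3 (0.16), and DESeq2 did not make it (0.17). Ordered by mean CPM, LN521 day 22 and LN521 day 2, the sixth and seventh groups, were the only neighbours whose libraries did not overlap.

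EDN2, on chromosome 1 at 41478775 to 41484683, minus strand, encodes the ligand closest to EDN1 in sequence. It was near the limit of detection for most of the course. On LN523 it measured 0.313, 0.123 and 0 CPM at day 2, 1.39, 0.0238 and 0.257 at day 22, and 4.18, 1.03 and 1.47 at day 32. On LN323 it had no count at day 2 in any library, then 0.989, 0 and 0.398 CPM at day 22, and 4.06, 0.861 and 0.507 at day 32. On LN521 the values were 0, 0 and 0.289 CPM, then 0.318, 0.237 and 0.769, and then 0.194, 1.11 and 1.01. Replicate 1 stood highest at day 32 on LN523 and LN323, and lowest on LN521. EDN2 rose from day 2 to day 22 on LN323 (adjusted p = 0.0028, edgeR), where the group's 43 counts make 0.381 CPM. This is 14.1-fold the level of 3 counts over the group, the floor taken for the count of 0 at day 2. The floor treats counts as independent, so the fold would be smaller if each mate was counted. It also leaves out the spread between libraries. The ranges overlapped, because 1 library was at 0 on day 22, and limma on log2(TPM + 1) gave an adjusted p of 0.31.

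EDN3, on chromosome 20 at 59300443 to 59325992, plus strand, encodes the ligand of the neural crest, and is one of the genes for which the set was chosen. On LN523 it measured 0.938, 0.616 and 0.579 CPM at day 2, 1.81, 5.28 and 2.80 at day 22, and 0.299, 1.30 and 0.230 at day 32. On LN323 the values were 1.35, 1.37 and 0.547 CPM, then 2.82, 5.28 and 1.99, and then 0.671, 4.35 and 2.89. On LN521 they were 0.278, 0.441 and 0.526 CPM, then 8.21, 3.03 and 2.53, and then 2.28, 4.52 and 1.45. By group mean EDN3 was thus highest at day 22 on all 3 matrices, a description that takes in the day 32 libraries that chose it. LN323 replicate 3 and LN521 replicate 2 were higher at day 32 than at day 22. Every day 22 library lay above every day 2 library of its matrix. The rise was 2.07 ± 0.60 on LN523 (log2 ± SE, adjusted p = 0.0069, edgeR), 1.57 ± 0.58 on LN323 (adjusted p = 0.042) and 3.48 ± 0.64 on LN521 (adjusted p = 2.4e-05). The LN323 call was lost without the replicate block (adjusted p = 0.056) and without LN323 day 2 replicate 2 (0.13) or 3 (0.18), or day 22 replicate 1 (0.055) or 2 (0.076). The LN523 call was lost without LN523 day 2 replicate 2 (0.074), and without LN521 day 22 replicate 1 the rise on LN521 was 2.64.

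EDN3 was chosen for its low level in the day 32 libraries of LN523, so the step from day 22 to day 32 on that matrix is given as a description. The difference was -2.58 ± 0.60 (log2 ± SE), and the libraries of these days did not overlap. The call made of it by edgeR (adjusted p = 0.028) was lost without the replicate block (adjusted p = 0.11), with the filterByExpr filter (0.16), and without LN523 day 22 replicate 2 (0.060) or 3 (0.10) or day 32 replicate 1 (0.29) or 3 (0.20), and the difference was -3.34 without day 32 replicate 2. On LN323 the change was -0.31 ± 0.56 and on LN521 -0.94 ± 0.57, neither past the threshold (adjusted p = 1.0 and 0.97). At day 2 EDN3 differed by -0.56 ± 0.66 for LN523 against LN323, 0.64 ± 0.68 for LN523 against LN521 and 1.20 ± 0.68 for LN323 against LN521, with no call (adjusted p = 1.0, 0.92 and 0.52), although the LN521 libraries lay below all others. At day 22 the same differences were 0.03 ± 0.41, -0.48 ± 0.43 and -0.51 ± 0.42, with adjusted p of 1.0 throughout. In the order of the 9 groups by mean CPM, all neighbours overlapped for EDN3, as they did for EDN2.

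At day 32, the contrast that chose the set, EDN3 was lower on LN523 than on LN521 by -2.47 ± 0.56 (log2 ± SE, described without a test), and lane by lane the ratio was 0.131, 0.288 and 0.158. The LN523 libraries, 0.230 to 1.30 CPM, all lay below the LN521 libraries, 1.45 to 4.52 CPM. Without LN521 day 32 replicate 1 the difference was -1.85. The comparison with LN323 at day 32 takes in the LN523 libraries that chose EDN3 and is not independent of the choice. In it EDN3 was -2.28 ± 0.57 on LN523, the ranges overlapped, and edgeR made no call (adjusted p = 0.70). Of 9 other settings 2 called this difference, and so did 1 of 6 fits with a library left out, which is no independent evidence. LN323 and LN521 differed by -0.19 ± 0.54 (adjusted p = 1.0).

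**Figure D2:**
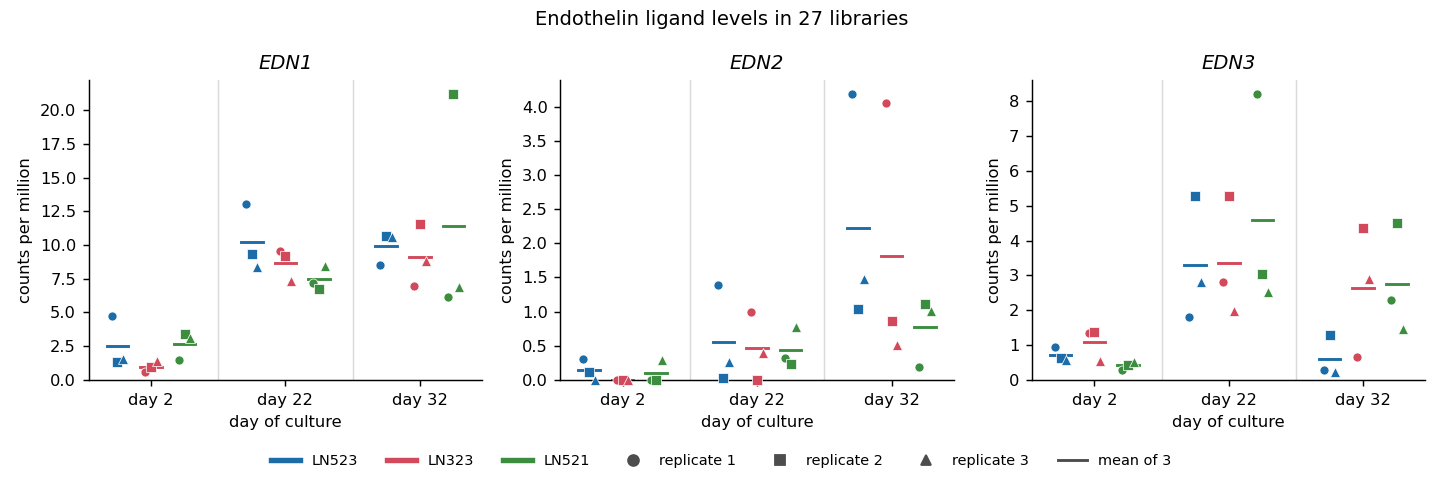
EDN1, EDN2 and EDN3 in CPM (vertical axes, linear) at days 2, 22 and 32 on LN523, LN323 and LN521, with a point per library, shaped by replicate, and a line at the mean of 3. EDN1 is at 6.17 or more in every library after day 2, and EDN2 is at 0.313 or less at day 2. EDN3 is highest at day 22 by group mean and at most 1.30 on LN523 at day 32.

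EDNRA, on chromosome 4 at 147480917 to 147544954, plus strand, rose on every matrix. On LN523 it measured 3.59, 4.87 and 5.25 CPM at day 2, 26.2, 89.3 and 35.9 at day 22, and 12.5, 46.5 and 21.6 at day 32. On LN323 it measured 4.65, 4.10 and 5.26 CPM, then 50.5, 92.3 and 48.8, and then 26.1, 109 and 65.5. On LN521 the values were 3.45, 4.32 and 3.37 CPM, then 21.6, 13.2 and 32.4, and then 38.6, 15.1 and 22.9. Every library after day 2 lay above every day 2 library, whereas among the day 22 and day 32 groups neighbours in the order of means all overlapped. The rise from day 2 to day 22 was 3.36 ± 0.40 on LN523 (log2 ± SE, adjusted p = 2.3e-09, edgeR), 3.69 ± 0.41 on LN323 (adjusted p = 2.0e-10) and 2.66 ± 0.39 on LN521 (adjusted p = 4.2e-07). These calls stood when each library was left out, in fits that kept the trend of the spread from all 27 libraries.

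At day 22 EDNRA was higher on LN323 than on LN521 by 1.38 ± 0.23 (log2 ± SE, adjusted p = 3.9e-05, edgeR), without overlap and in 3 of 3 lanes. On LN523 it was higher than on LN521 by 0.96 ± 0.23 (adjusted p = 0.020), in 3 of 3 lanes but with overlapping ranges. These comparisons share the LN521 libraries. Neither call stood without the replicate block, where the adjusted p was 0.55 for LN323 and 0.90 for LN523. With filterByExpr it was 0.93 and 0.96. The LN323 call was lost without LN323 replicate 1 (adjusted p = 0.50), 2 (0.20) or 3 (0.18), and without LN521 replicate 2 the difference was 0.81. The LN523 call was lost without LN521 replicate 2 (adjusted p = 1.0, with a difference of 0.33), LN523 replicate 2 (0.76) or LN523 replicate 3 (0.42), and DESeq2 did not make it (0.49).

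Lane 2 held the highest EDNRA on LN523 and LN323 at both later days and the lowest on LN521. TWIST1, a mesenchyme and cranial crest factor chosen for naming after its values were seen, had the same high libraries, with 2.57, 26.6 and 4.46 CPM on LN523 at day 22 and 2.18, 56.3 and 4.61 at day 32. On LN323 TWIST1 measured 5.78, 30.5 and 14.7 CPM at day 22 and 2.99, 118 and 39.9 at day 32. The summed level of the 10 pharyngeal arch genes was highest in the same lane. On LN523 it was 91.9 CPM against 50.4 and 46.7 at day 22, and 113 against 28.2 and 33.2 at day 32. On LN323 it was 85.0 CPM against 59.4 and 70.1 at day 22, and 179 against 42.2 and 87.9 at day 32. TWIST1 is among these 10 genes, so the sum repeats its values in part. In lane 2 TWIST1 made 26.6 of 91.9 and 56.3 of 113 CPM on LN523, and 30.5 of 85.0 and 118 of 179 CPM on LN323. On LN323 at day 22 the lead of lane 2 over lane 3, 85.0 against 70.1 CPM, was smaller than that of TWIST1, 30.5 against 14.7. Apart from TWIST1, lane 2 was thus not the highest in that group. In the other groups of LN523 and LN323 named here the lead of lane 2 was larger than that of TWIST1. The surface ectoderm sum of 14 genes was likewise highest in lane 2, with 2900, 2378, 2787 and 2784 CPM in lane 2 of these groups and 689 to 1794 in their other libraries. On LN521, where EDNRA was lowest in lane 2, the surface ectoderm sum was highest in that lane at day 22, with 2056 CPM against 1729 and 1806, and so was the pharyngeal arch sum at day 32, with 42.3 CPM against 38.1 and 35.9. In these cases the sums ran against EDNRA. The pharyngeal arch sum on LN521 at day 22 went with it, at 62.5, 40.7 and 79.3 CPM in lanes 1 to 3. At day 32 the surface ectoderm sum on LN521 was 2716, 2648 and 1835 CPM, highest in lane 1 as EDNRA was, but lowest in lane 3. Among the surface ectoderm genes, KRT17 reached 385 CPM, KRT15 144, TP63 87.8, KRT5 8.27 and KRT14 0.841 in some library of day 32. The sum does not mark surface ectoderm alone, since it was 1405 to 2148 CPM in the day 2 libraries. KRT8 and KRT19, also on the list, had medians of 396 and 243 CPM at day 2 and of 715 and 383 at day 32. The neural retina sum of 11 genes was lowest in lane 2 in 3 of these 4 groups, LN323 at day 22 being the exception. The part of these cell types in the EDNRA levels was not tested.

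EDNRB, on chromosome 13 at 77895481 to 77975529, minus strand, ran the opposite way. On LN523 it measured 22.0, 24.4 and 31.4 CPM at day 2, 1.39, 4.33 and 1.72 at day 22, and 2.13, 3.96 and 2.30 at day 32. On LN323 it measured 53.3, 49.4 and 36.8 CPM, then 2.59, 3.92 and 2.20, and then 2.52, 11.9 and 2.76. On LN521 the values were 26.7, 43.1 and 37.3 CPM, then 24.3, 2.65 and 2.36, and then 14.7, 6.28 and 5.87. The 9 day 2 libraries stood above nearly all later ones, LN521 day 22 replicate 1 with 24.3 CPM being within the day 2 range of LN523. The fall from day 2 to day 22 was -3.52 ± 0.54 on LN523 (log2 ± SE, adjusted p = 6.1e-07, edgeR), -4.02 ± 0.54 on LN323 (adjusted p = 3.9e-08) and -1.98 ± 0.51 on LN521 (adjusted p = 0.0029). In the order of group means all neighbours overlapped. Replicate 1 decides the LN521 value, which was -3.83 without LN521 day 22 replicate 1 (adjusted p = 1.2e-09), -1.32 without replicate 2 (0.077) and -1.38 without replicate 3 (0.067).

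That library also carried the highest stem cell signal of day 22. Its pluripotent sum of 10 genes was 722 CPM, against 109 to 318 in the other day 22 libraries. Its neural crest and melanocyte sum of 17 genes, SOX10 not among them, was 961 CPM, against 472 to 714 in the others. Its vascular sum of 16 genes was 81.1 CPM, against 25.9 to 43.3. PECAM1 and CDH5, the defining endothelial genes, reached at most 0.703 and 3.04 CPM at day 22. At day 32, the day whose libraries chose EDNRB, the highest EDNRB was that of LN521 replicate 1, with 14.7 CPM. That library had the lowest neural crest and melanocyte sum of the day, 541 CPM, and the highest pluripotent sum, 140 CPM. The part of remaining stem cells or of other cells in the EDNRB level of either library was not tested.

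**Figure D3:**
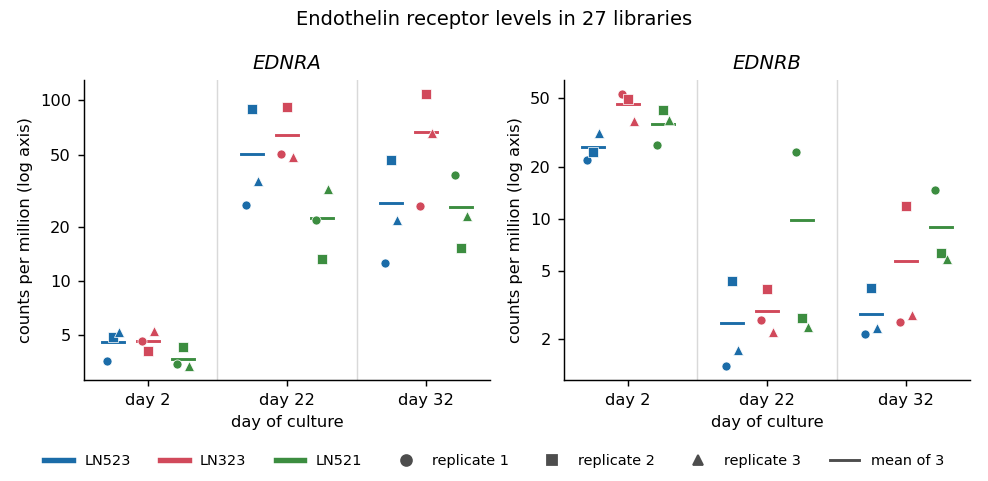
EDNRA and EDNRB in CPM (vertical axes, log scale) at days 2, 22 and 32 on LN523, LN323 and LN521, with a point per library, shaped by replicate, and a line at the mean of 3. EDNRA lies at 3.37 to 5.26 at day 2 and at 12.5 or more later, EDNRB lies at 22.0 to 53.3 at day 2 and at 14.7 or less in all later libraries but LN521 replicate 1 at day 22, which has 24.3.

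No change of EDNRB from day 22 to day 32, an interval that takes in libraries of the choosing contrast, passed the test, with 0.21 ± 0.50 on LN523, 0.89 ± 0.50 on LN323 and -0.07 ± 0.49 on LN521 (log2 ± SE, adjusted p = 1.0 in each, edgeR). Without LN521 day 22 replicate 1 the LN521 change was 1.96 with an adjusted p of 0.016. At day 2, in cells labelled undifferentiated, EDNRB was lower on LN523 than on LN323 by -0.84 ± 0.21 (adjusted p = 0.043), in 3 of 3 lanes and without overlap. The call was lost without LN323 replicate 1 (adjusted p = 1.0), LN523 replicate 1 (1.0) or LN523 replicate 2 (0.23), with the filterByExpr filter (1.0) and with all 27 libraries in the fit (1.0). LN523 was below LN521 by -0.53 ± 0.21 (adjusted p = 0.36) and LN323 above LN521 by 0.30 ± 0.21 (adjusted p = 0.72), with no call. At day 22 the differences were -0.22 ± 0.42 for LN523 against LN323, -1.50 ± 0.49 for LN523 against LN521 and -1.28 ± 0.47 for LN323 against LN521, again with no call (adjusted p = 1.0, 0.24 and 0.41). Without LN521 replicate 1 the last of these were 0.0023 and 0.34, and without LN521 replicate 2 they were -2.46 (adjusted p = 0.00028) and -2.15 (0.0016). They also passed without LN521 replicate 3 (adjusted p = 0.016 and 0.036), as did the first without LN523 replicate 2 (0.0018).

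In the contrast that chose the set, EDNRB was lower on LN523 than on LN521 at day 32 by -1.80 ± 0.48 (log2 ± SE, described without a test). The ratio in lanes 1 to 3 was 0.145, 0.631 and 0.392, and the LN523 libraries, 2.13 to 3.96 CPM, did not overlap those of LN521, 5.87 to 14.7 CPM. Without LN521 day 32 replicate 1 the difference was -0.94. The other members differed in that contrast by -0.02 for EDN1, 0.97 for EDN2, -0.27 for EDNRA, 0.51 for ECE1 and -0.48 for ECE2. Of these ECE1 alone showed no overlap, but the share of all genes without overlap was not computed. The share of all genes called by edgeR in it, a different measure, was 0.0609%. Against LN323, EDNRB was -0.84 ± 0.47 on LN523 and -0.96 ± 0.49 for LN323 against LN521, neither past the threshold (adjusted p = 1.0, edgeR).

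The opposite courses of the receptors turned their balance around. EDNRB made 80.9% to 91.1% of the summed receptor TPM in the 9 libraries of day 2. At day 22 it made 4.28%, 3.94% and 3.89% on LN523 and 4.15%, 3.46% and 3.68% on LN323. On LN521 the day 22 shares were 48.7%, 14.5% and 5.80%, all above those of the other matrices. At day 32 they were 12.6%, 6.71% and 8.26% on LN523, 7.54%, 8.44% and 3.45% on LN323, and 24.4%, 26.0% and 17.8% on LN521. LN521 thus had the highest EDNRB share at both later days without overlap, a description that takes in the libraries that chose EDNRB. At day 22 the EDNRB level itself was not higher in LN521 replicates 2 and 3, with 2.65 and 2.36 CPM against 1.39 to 4.33 on the other matrices. Their EDNRA was 13.2 and 32.4 CPM, against 26.2 to 92.3 on the other matrices.

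**Figure D4:**
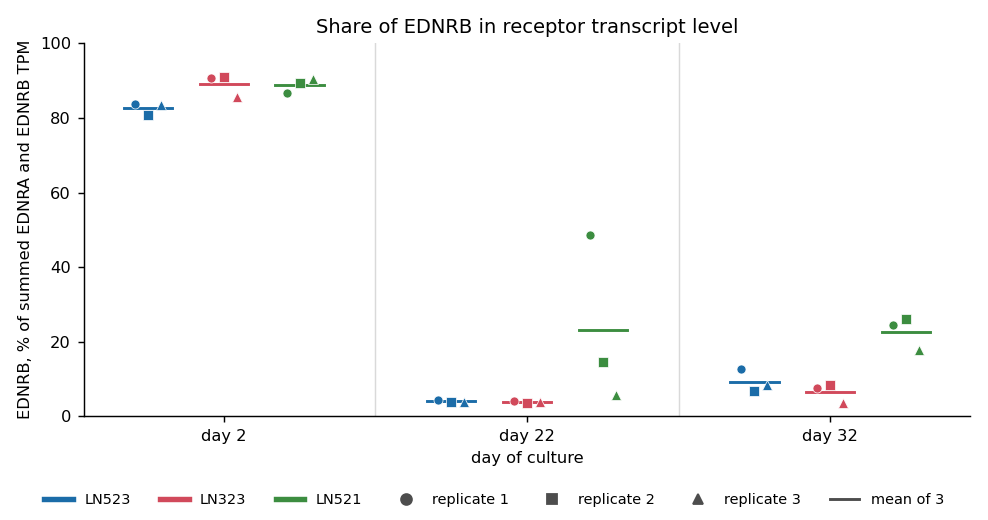
EDNRB as a percentage of the summed EDNRA and EDNRB TPM (vertical axis) at days 2, 22 and 32 on LN523, LN323 and LN521, with a point per library. The share lies between 80.9% and 91.1% at day 2 and at or below 48.7% later, where the LN521 libraries stand above those of LN523 and LN323.

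ECE1, on chromosome 1 at 21217247 to 21345572, minus strand, encodes the main converting enzyme and was called in no comparison. It ranged from 78.4 to 99.6 CPM at day 2, from 66.7 to 128 at day 22 and from 63.5 to 149 at day 32. No change of ECE1 over time or between matrices passed the test, with adjusted p of 0.68 on LN523, 1.0 on LN323 and 0.24 on LN521 from day 2 to day 22 (edgeR). The highest libraries were LN323 day 32 replicate 1 with 149 CPM and LN523 day 32 replicate 1 with 141 CPM. The neighbours in the order of group means all overlapped.

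ECE2, on chromosome 3 at 184276011 to 184293031, plus strand, encodes the related enzyme of neuroendocrine tissue, and fell from day 2 on. At day 2 it measured 18.8, 17.6 and 17.9 CPM on LN523, 23.2, 21.8 and 24.7 on LN323, and 12.4, 15.5 and 20.7 on LN521. The 9 libraries of day 22 ranged from 3.77 to 8.05 CPM and those of day 32 from 3.42 to 9.70 CPM, all below the lowest of day 2. LN323 and LN523 at day 2, the first and second groups by mean, did not overlap, and neither did LN521 at day 2 and its follower LN521 at day 32. The fall to day 22 was -1.57 ± 0.36 on LN523 (log2 ± SE, adjusted p = 0.00059, edgeR), -2.18 ± 0.37 on LN323 (adjusted p = 4.2e-06) and -1.60 ± 0.36 on LN521 (adjusted p = 0.00055). The gene model counted for ECE2 is uncertain. The TPM values imply a length of 6552 bases, 139% of the exons of ECE2 in GENCODE 44, and the read-through gene EEF1AKMT4-ECE2, which is not listed separately in the table, shares 62.7% of those exons. Reads of EEF1AKMT4 can thus be among the counts.

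**Figure D5:**
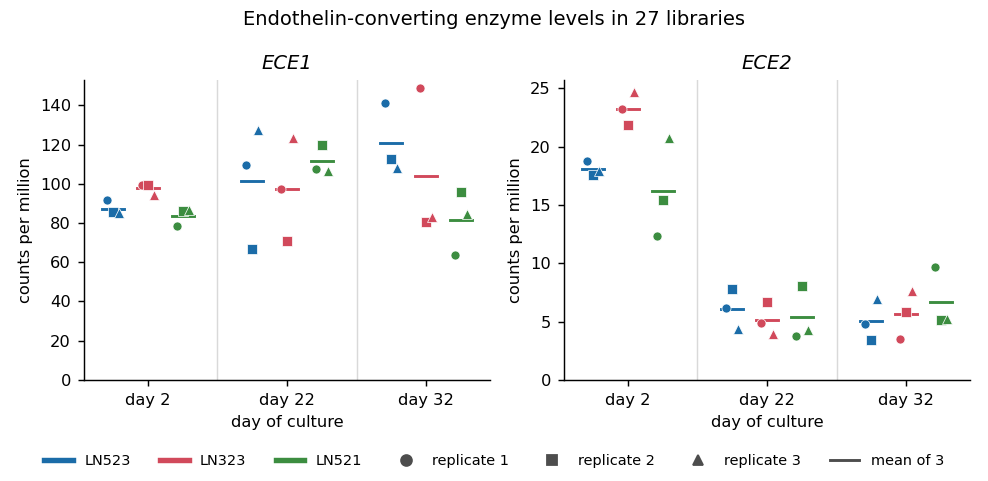
ECE1 and ECE2 in CPM (vertical axes, linear) at days 2, 22 and 32 on LN523, LN323 and LN521, with a point per library, shaped by replicate, and a line at the mean of 3. ECE1 ranges from 63.5 to 149 without a called change, and ECE2 is between 12.4 and 24.7 at day 2 and at most 9.70 later.

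The other genes of the pathway were taken from lists and followed on LN523. Of all genes on LN523, 21.7% were called from day 2 to day 22, 11.5% higher and 10.2% lower, and 0.381% from day 22 to day 32. Of 11 genes that cut or break down the peptides, 2 rose and 2 fell from day 2 to day 22, with a median of -0.36 (log2) beside 0.02 for all genes. FURIN, a convertase of the precursors, rose by 1.15 ± 0.22 to 103 CPM, and PCSK5, another convertase, by 0.94 ± 0.23 to 63.4 CPM. KEL, a protease that activates EDN3, fell by 3.32 ± 0.65 on the log2 scale. Of 26 receptor signalling genes, 8 rose and 5 fell, with a median of -0.14. GPR37, an orphan receptor related in sequence to EDNRB, rose from 9.15 to 95.6 CPM (3.31 ± 0.30), while ITPR3, a calcium channel of the endoplasmic reticulum, went from 125 to 10.6 CPM (-3.54 ± 0.34) and PLCB2, a phospholipase C, fell by 3.28 ± 0.47. From day 22 to day 32, edgeR called 0 genes in both lists, with 1 and 2 genes at an unadjusted p under 0.05 and 1 and 0 called by DESeq2.

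The marker lists on LN523 are read beside the same 11.5% of all genes called higher and 10.2% called lower. From day 2 to day 22 all 10 pluripotent genes fell, with a median of -7.89, and 10 of 11 neural retina genes rose and 1 fell, with a median of 8.10. Of 10 pharyngeal arch genes, which include targets of EDN1 and EDNRA signalling, 9 rose and 0 fell, with a median of 5.07. GATA3 among them rose by 7.34 ± 0.55 to 24.6 CPM, while HAND2 and DLX5 had no count at day 2 and measured 2.25 and 1.51 CPM at day 22. Of 17 neural crest and melanocyte genes, 8 rose and 4 fell, with a median of 1.60, or 2.18 with 2 genes that lacked counts in a group set at their bound. SOX10, a neural crest marker, was planned for that list but was not matched, and is not among the 17. MITF and DCT are also on the pigment epithelium list. DCT, a melanin enzyme of melanocytes and pigment epithelium, rose by 7.96 ± 0.40 to 174 CPM and FOXD3, which stem cells also express, fell by 8.47 ± 0.84. Of 13 pigment epithelium genes 9 rose and 0 fell. Of 14 surface ectoderm genes 7 rose and 3 fell, among them TP63 with 7.95 ± 0.63. Of 10 glial genes 3 rose, among them VIM with 2.88 ± 0.41, whereas GFAP, the defining astrocyte gene, was at most 2.78 CPM in any library. Of 16 vascular genes 5 fell and 0 rose. The vascular sum of 454 to 666 CPM at day 2 lay mostly in FLT1, at 158 to 306 CPM, and KDR, at 137 to 328 CPM, both of which stem cells express, while PECAM1 was at most 0.790 CPM and VWF 3.39 CPM.

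Of 12 photoreceptor progenitor genes on LN523, 7 rose and 2 fell from day 2 to day 22, beside 11.5% and 10.2% of all genes. From day 22 to day 32, 6 rose and 0 fell, beside 0.381% of all genes called in either direction. NEUROD1 rose by 5.13 ± 0.80 and RBP3 by 5.38 ± 0.82 over the later interval. Among the other marker lists edgeR called KRT17, LIN28A, SALL4 and ATOH7 in that interval, and none in the neural crest, pharyngeal arch, vascular, pigment and glial lists. Those 5 lists held 5, 2, 3, 3 and 1 genes at an unadjusted p under 0.05, and DESeq2 called 0 in each.

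Genes with the most similar course were found by Pearson correlation of log2 CPM over the 27 libraries, which share the 3 days and the lanes, so the values are a description. EDNRA was closest to KIF26B (r = 0.954), B3GLCT (0.949) and DISP1 (0.945), and after centring each day r was 0.853 for KIF26B and 0.856 for DISP1. EDNRB was closest to RTP1 (0.942), CA4 (0.940) and GDF3 (0.936), with 0.823 for RTP1 and 0.821 for GDF3 after centring. EDN1 was closest to SMIM17 (0.932), TCEA3 (0.931) and ADCY6 (0.920), EDN2 to genes that include DTX3 (0.871) and OSER1-DT (0.870), and EDN3 to COBLL1 (0.846), LMO2 (0.836) and SKAP2 (0.834). ECE1 was closest to BAG6 (0.857), RSAD1 (0.837) and SMAP1 (0.830). ECE2 was closest to TXNDC17 (0.963), POP7 (0.962) and RPS26 (0.962).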

How the data were processed

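Bulk RNA of H1 cells was sequenced for 3 laminin matrices and 3 days, and the 27 libraries were put into 9 groups of 3 by GEO's labels. Per the labels and methods, the authors removed ribosomal RNA, made stranded libraries, sequenced pairs of 150 bp, trimmed with cutadapt, aligned to GRCh38 (Ensembl 79) with STAR 2.5.2b and counted with featureCounts 1.5.1. The strand setting of the counting is not given in the sources used here. The deposited counts were rounded and not normalized, and lacked rRNA and mitochondrial genes. A TPM table that the authors deposited scales those counts by gene length. Genes were named by GENCODE 44, and OBI1-AS1 and ECE1-AS1 overlap EDNRB and ECE1 on the opposite strand by 1.43% and 3.28% of their exons.

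CPM values were computed from the counts with TMM over all libraries. The main test was edgeR 4.0.16 in R 4.3.3, by quasi-likelihood, on genes whose counts summed to over 1. Lane entered as a block, following the study. Matrices were compared within a day on 9 libraries, and days and interactions on all 27, with Benjamini-Hochberg adjustment over all genes and a threshold of 0.05. SE was the fold change divided by the square root of F. DESeq2 1.42.0, limma 3.58.1 on log2(TPM + 1) and log2(TPM + 0.1), other size factors, filters, libraries and blocks, and each library left out were alternatives. For days and interactions, the fits with a library left out kept the trend of the spread estimated from all 27 libraries. Because 68.8% of the non-zero counts were even, which counting each mate would give, counts divided by 2 were also run. The fits were tested on simulated data. Libraries of the same lane on different matrices correlated, in their deviations from the group means, at -0.51 to 0.77, with 17 of 27 values over 0.1, and the lanes come from the sample titles. Intervals and SE cover only the spread between libraries, and 3 counts were taken as the floor of a count of 0.

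The members and the gene lists were chosen with earlier results of these data known. The text names the 7 members, the 3 genes most like each, of which 1 is not reported here, and up to 3 genes per list with the largest change among those called and at 1 CPM or more in some group, beside defining markers and genes said to be chosen later.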

Additional observations from a re-analysis of the deposited data

Results flagged for a closer look

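In 2 cases the difference between matrices pointed one way in every lane at 1 day and the other way in every lane at another day, and the change of direction was not tested. With 3 lanes and many combinations of member, matrices and days, the spread alone can give such cases. How many it would give, and the share over all genes, was not computed, so they are not read as a result about the members. EDN3 on LN523 against LN521 had a mean log2 difference of 0.718 over the lanes at day 2 and of -2.31 at day 32, the day whose libraries chose the gene. ECE2 on LN523 against LN323 had a mean log2 difference of -0.361 at day 2 and of 0.239 at day 22. Groups of 3 libraries are too small for a check on single outlying values.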

How the results depend on the processing

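The count of called members from day 2 to day 22 stayed at 15 to 17 of 21 under every alternative run, and that of list genes on LN523 at 78 to 98 beside 93. The smaller counts moved. From day 22 to day 32, where 1 member was called, the count was 0 with filterByExpr, without the replicate block and with limma at either pseudocount, 3 with only the groups compared, and 0 to 2 with a library left out. Between matrices at day 2, where 2 were called, it was 0 with filterByExpr, only the groups compared, limma at either pseudocount or all 27 libraries in one fit, 1 with counts divided by 2, and 0 to 2 with a library left out. At day 22, where 2 were called, it was 1 with RLE size factors, DESeq2 or only the groups compared, 0 with filterByExpr, without the replicate block, with limma at either pseudocount or with all 27 libraries, and 0 to 4 with a library left out. At day 32, where 0 were called, it was 1 with DESeq2, 2 with only the groups compared and 0 to 3 with a library left out, and for the differences in the change to day 22 it was 1 with only the groups compared. The 10 list genes called from day 22 to day 32 became 0 with filterByExpr, 29 with only the groups compared, 4 and 0 with limma at the pseudocounts 1 and 0.1, and 7 to 16 with a library left out. The cause of these shifts was not tested. The blocked fit was the main one, and the replicate block moved the other counts by less than 1.5 times.

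The described contrast at day 32 gave -1.45 for EDN3 with limma at a pseudocount of 1. With a library left out it ran from -2.83 to -1.85 for EDN3 and from -2.38 to -0.94 for EDNRB. Directions reversed only for values not called. EDN3 on LN523 against LN323 at day 22 was -0.026 without the replicate block, -0.038 with only the groups compared, -0.0053 and -0.0084 with limma, and -0.0062 with all 27 libraries. EDN3 on LN323 against LN521 at day 32 was 0.0060 with all 27 libraries. EDNRB on LN521 from day 22 to day 32 was 0.61 with only the groups compared and 0.41 and 0.58 with limma. With a library left out at day 22, EDN3 ran from -0.29 to 0.48 on LN523 against LN323, from -1.04 to 0.32 on LN523 against LN521 and from -1.06 to 0.38 on LN323 against LN521. EDNRB ran from -1.0 to 0.35, from -2.46 to 0.0023 and from -2.15 to 0.34 in the same comparisons. EDN3 on LN323 against LN521 at day 32 ran from -0.96 to 0.40. From day 22 to day 32 the bounds for EDNRB were -0.14 and 0.70 on LN523, -0.033 and 1.32 on LN323, -0.65 and 1.96 on LN521, and those for EDN3 on LN323 were -0.79 and 0.21. RLE size factors shifted the median of all genes by at most 0.058. The few counts of EDN2 and EDN3 limit what can be detected for them at this depth.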
